A study of Mus musculus with 9 samples.

Results

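The response of the mouse colon to dextran sulfate sodium (DSS) was described with a quantitative PCR array of wound healing genes. All 84 genes of the array's panel were taken, with no choice among them, and 6 of the 9 arrays of the series entered the comparison. The tested mice (DSS) drank 3% DSS in their water for 7 days, and the untreated mice (UN) drank regular water over the same time. All were C57bl6J females of 8 to 9 weeks. RNA from the colon of 5 mice was pooled in each group, and each pool was run on 3 arrays. The 3 arrays of the mice given DSS with dipotassium glycyrrhizate (DSS+DPG) were used only in the shared estimate of the spread. Since a group's arrays repeat a single pool, every p-value below reflects technical spread from array to array, and variation among mice was not measured.

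DSS is a sulfated polysaccharide that damages the colon epithelium when it is drunk, and the contents of the gut then reach the tissue beneath it. The repair of such a wound runs through overlapping phases. Damaged cells and resident macrophages release cytokines and chemokines that draw in neutrophils and monocytes, the clotting and plasminogen systems lay down and remove a provisional matrix, and fibroblasts and smooth muscle cells rebuild collagen and contract. Epithelial cells meanwhile loosen their contacts, move over the bare area and divide under the control of growth factors of the EGF, FGF and HGF families.

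Each well gave a threshold cycle (Ct), the PCR cycle at which a well's fluorescence crosses a set level, so that 1 cycle later stands for 2-fold less template. A gene's delta Ct is its Ct minus the mean Ct of 5 housekeeping genes (Actb, B2m, Gapdh, Gusb, Hsp90ab1) of that array, and a lower delta Ct means more RNA relative to them. The log2 fold change is the mean delta Ct of UN minus that of DSS, and is positive where DSS was higher. A gene passed the test where limma, with Benjamini-Hochberg adjustment over the 84 genes, gave an adjusted p under 0.05. In bulk tissue, fewer cells of a type and less RNA per cell cannot be told apart.

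The control wells were read first. The reverse transcription wells averaged a Ct of 23.96 ± 0.07 in DSS arrays and 23.98 ± 0.03 in UN arrays (SD, n = 3 each), and the genomic DNA well gave no signal in any of the 6 arrays. The positive PCR wells averaged 20.99 ± 0.04 in DSS arrays and 20.69 ± 0.28 in UN arrays, with 1 UN array inside the DSS range (two-sided exact permutation test, p = 0.3). The median Ct of the panel lay between 26.57 and 26.77 in DSS arrays and between 27.84 and 27.89 in UN arrays, and 80 genes in each DSS array, against 77 in each UN array, had a Ct under 35. Repeats were close, with a median SD over genes of 0.0586 cycles in DSS and 0.0551 cycles in UN. The replicate 3 Ct lay between or equal to the other 2 in 72 of 83 genes in DSS and 58 of 81 genes in UN, among genes with a Ct in all 3 arrays. Replicate 1 did so in 11 genes in DSS and 14 in UN, and replicate 2 in 5 genes in DSS and 15 in UN. The study's supplementary workbook lists raw Ct of replicates 1 and 2 only. Every SD, SE and p-value of 3 arrays rests on replicate 3, and counts without it are given below.

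The housekeeping genes did not hold the same raw Ct in both groups. B2m, the light chain of class I antigen-presenting molecules, had a Ct of 19.18, 19.00 and 19.08 in DSS arrays, against 20.19, 20.17 and 20.20 in UN arrays. It came earlier in every DSS array than in any UN array. Hsp90ab1, a chaperone, had 23.17, 23.14 and 23.18 in DSS arrays, against 22.09, 22.07 and 22.08 in UN arrays. Gapdh, an enzyme of glycolysis, had 22.39, 22.22 and 22.31 in DSS arrays, against 21.54, 21.65 and 21.61 in UN arrays, and Gusb, a lysosomal enzyme, had 26.87, 26.91 and 26.77, against 26.43, 26.43 and 26.50. These 3 genes were later in DSS in every array. Actb, the cytoskeletal beta-actin, had 19.95, 19.54 and 19.74 in DSS arrays, against 19.69, 19.65 and 19.69 in UN arrays, and its groups overlapped. The mean of all 5 was 22.23 ± 0.08 in DSS and 22.00 ± 0.01 in UN (SD, n = 3 each; p = 0.1 in a two-sided exact permutation test, which cannot give less with 3 arrays a group). The mean thus moved by 0.23 cycles while its members moved by -1.10 to 1.08 cycles.

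**Figure D1:**
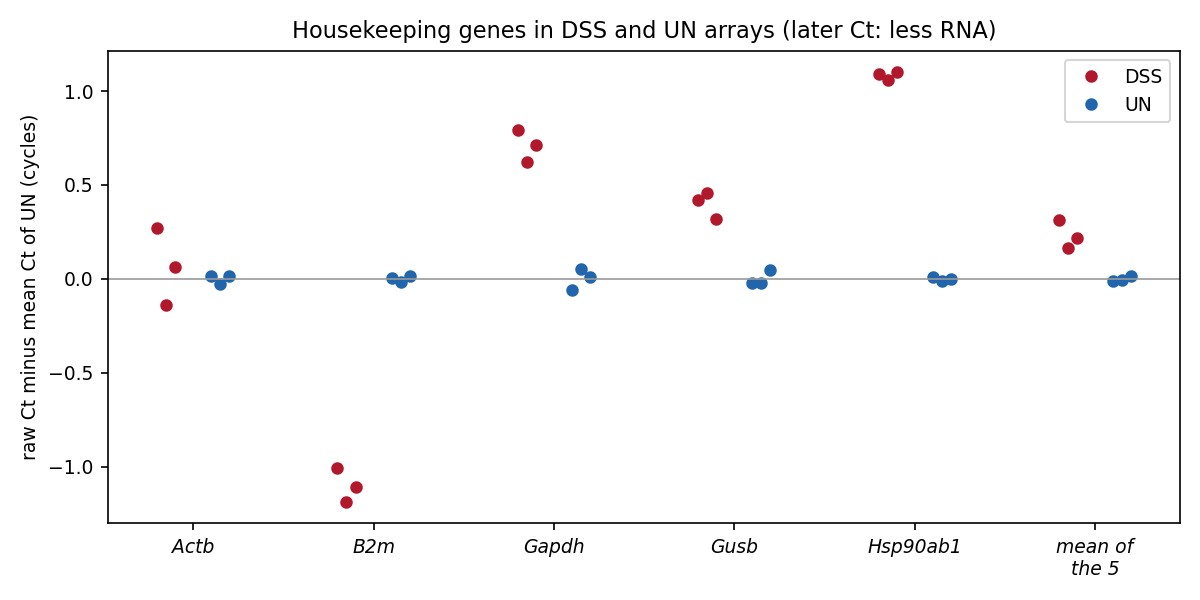
Raw Ct of each housekeeping gene in each array, as the difference in cycles from the mean Ct of the UN arrays, with the DSS arrays (red) left of the UN arrays (blue). Each point is 1 array. B2m lies about 1.10 cycles below UN in DSS and Hsp90ab1 1.08 cycles above, while their mean lies 0.23 cycles above.

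DSS colon differed from UN colon in nearly the whole panel, so the size and direction of a change tell more than its call. Of the 84 genes, 77 passed the test (91.7%), of which 52 were higher (61.9%) and 25 were lower in DSS (29.8%). The median log2 fold change over the panel was 0.71. Changes above 0 reached much further than those below: 36 genes (42.9%) passed the test with a rise of at least 2-fold and 23 (27.4%) with a rise of at least 3.5-fold, whereas 7 genes (8.33%) fell by at least 2-fold and 2 by at least 3.5-fold. The arrays of the groups did not overlap in 80 genes (95.2%). With arrays 1 and 2 of each group alone, 67 genes passed the test, 47 higher and 20 lower. The calls lost there were Cd40lg, Cxcl11, Csf2, Tagln, Hbegf, Mmp1a, Itga2, Itga5, Itgb5, Col1a2 and Col5a2, and Mif was gained.

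The split between rises and falls moved with the reference, because another reference shifts every gene by the same amount. Of the calls, 67.5% were rises with the mean of the housekeeping genes as reference, 79.2% with Gapdh alone, 77.5% with Itga3, Mif and Hsp90ab1, and 29.2% with the panel's median Ct, which moved every log2 fold change by -1.44. With that median, 13 genes rose and 21 fell by at least 3.5-fold. Over 9 other references, all except the panel median, 48 of the 52 rises and 16 of the 25 falls passed the test in the same direction under each. Among these 16 falls were Actc1, Col4a3, Acta2, Csf2, Egf, Rac1, Cdh1, Tgfa, Mapk3, Col14a1, Pdgfa, Rhoa, Itga6 and Ctnnb1. The order of the genes and the distance between any pair of them do not depend on the reference. Where a change is said below to hold under every reference, the 9 are meant and the panel median is left out.

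**Figure D2:**
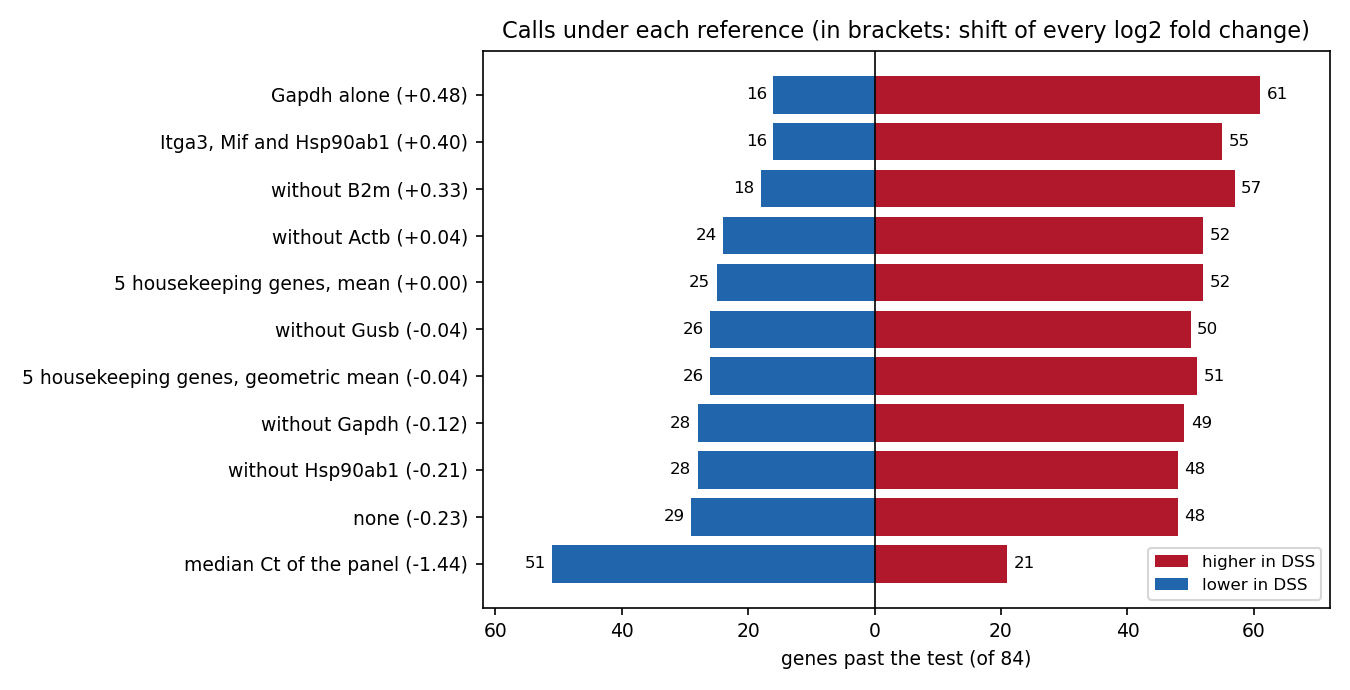
Number of the 84 genes that passed the test as higher (red, right) or lower (blue, left) in DSS under each reference, with the shift in brackets that the reference gives every log2 fold change. The mean of the housekeeping genes gives 52 higher and 25 lower, Gapdh alone 61 and 16, and the median Ct of the panel 21 and 51.

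The classes of the panel lay in different ranges. Cytokines and chemokines had a median log2 fold change of 4.44 over 13 genes, and matrix remodeling genes had 1.15 over 16 genes, both above the panel's 0.71. Growth factors had 0.51 over 17 genes, signal transduction genes 0.43 over 11, matrix structure genes 0.34 over 10 and cell adhesion genes 0.01 over 12. Cytoskeleton genes had -1.14 over 5 genes and were the only class with no rise. These medians are a description, with no test of the classes against each other.

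**Figure D3:**
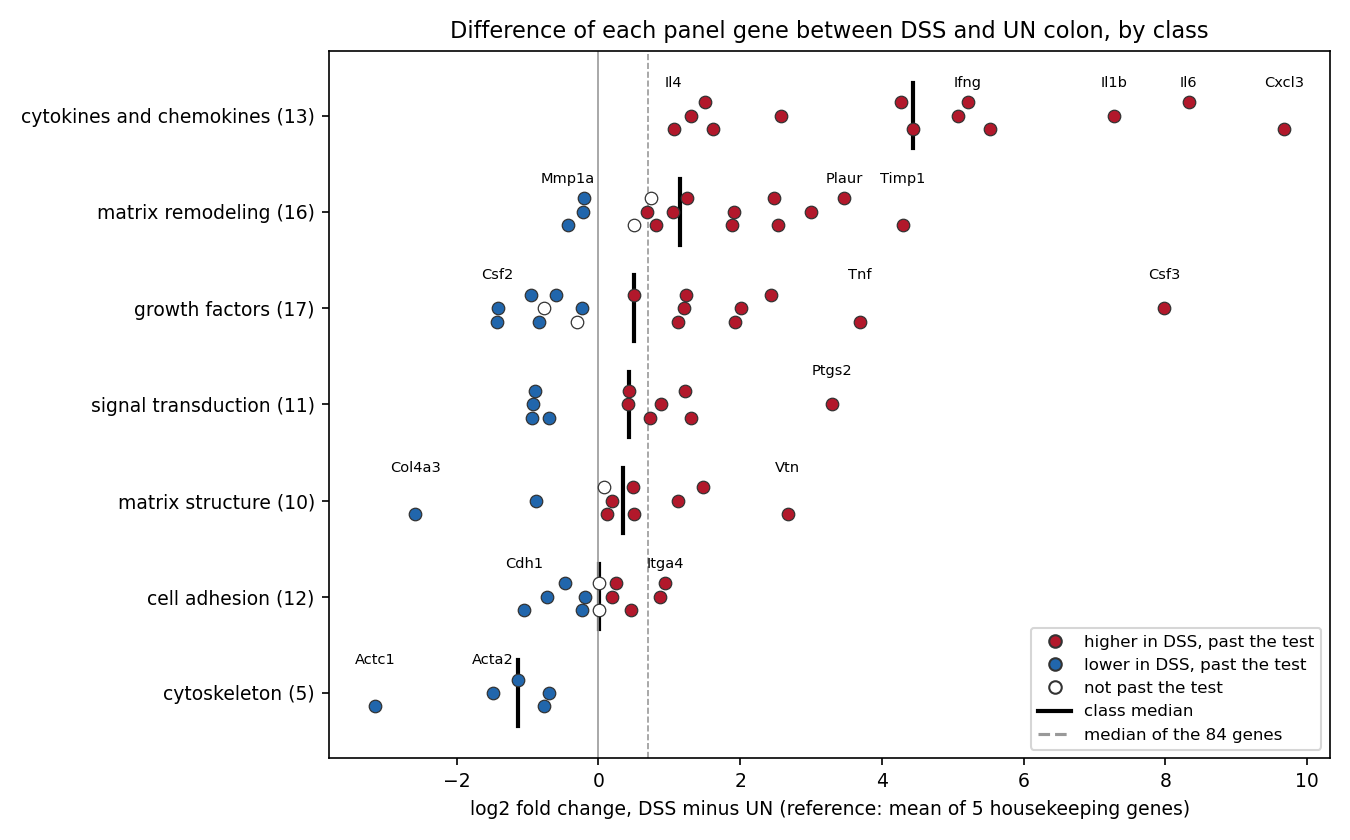
Log2 fold change (DSS minus UN) of each of the 84 genes by class, with the number of genes of the class in brackets. Filled points passed the test, red higher and blue lower in DSS, open points did not, the black bar is the class median and the dashed line the panel median of 0.71. All 13 cytokines and chemokines lie above 0, and all 5 cytoskeleton genes lie below it.

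Cytokines and chemokines rose as a whole class in DSS colon. All 13 genes were higher, against 61.9% of the panel, and 9 of the 13 rose by at least 3.5-fold, against 27.4% of the panel. Log2 fold changes ran from 1.06 for Il4 to 9.68 for Cxcl3. The 3 largest were in Cxcl3, Il6 and Il1b, and the 3 smallest in Il4, Cd40lg and Cxcl11.

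The leading gene was Cxcl3, which encodes a chemokine that attracts neutrophils through the receptor Cxcr2. Its delta Ct was 2.82, 2.83 and 2.84 in DSS arrays, against 12.28, 12.75 and 12.49 in UN arrays. The DSS arrays were nearly identical, and every one had a far lower delta Ct than every UN array. In UN arrays the raw Ct of Cxcl3 were late, at 34.27, 34.74 and 34.51. Cxcl3 was 819-fold higher in DSS (log2 fold change 9.68 ± 0.14 SE; limma with Benjamini-Hochberg adjustment, adjusted p = 2.49e-10). Cxcl5 and Cxcl1, which act on the same receptor, were 33.5-fold and 21.7-fold higher. Cxcl5 had a delta Ct of 1.12, 0.95 and 1.13 in DSS arrays, against 6.24, 6.00 and 6.16 in UN arrays. Cxcl1 had 5.31, 5.46 and 5.41 in DSS arrays, against 9.96, 9.67 and 9.86 in UN arrays. No array of a group reached the range of the other for these 3 genes.

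The promoters of Cxcl3, Cxcl1 and Il6 are shown because these genes rose by over 20-fold and their windows, unlike those of most genes, hold a kappaB site, the DNA motif of the NF-kappaB factors of the inflammatory response. The promoter of Actc1 is shown because this gene fell most and its window holds a CArG box, the motif of serum response factor in genes of contractile cells. Each is 300 bases from RefSeq on GRCm38.p6, from 250 bases before the gene's start to 50 after it, written 5′ to 3′ on the gene's strand, with the kappaB site in capitals for the chemokines and Il6 and the CArG box in capitals for Actc1. Cxcl3 is at chr5:90785851-90786150 and Cxcl1 at chr5:90890995-90891294 (both plus strand), Il6 at chr5:30012864-30013163 (plus strand) and Actc1 at chr2:114052826-114053125 (minus strand).
Cxcl3: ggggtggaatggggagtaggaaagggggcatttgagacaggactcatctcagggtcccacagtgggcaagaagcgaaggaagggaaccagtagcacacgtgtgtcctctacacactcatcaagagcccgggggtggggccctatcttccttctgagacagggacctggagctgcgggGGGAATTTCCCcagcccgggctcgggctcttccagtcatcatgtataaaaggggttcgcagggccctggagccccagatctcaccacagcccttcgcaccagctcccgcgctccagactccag
Cxcl1: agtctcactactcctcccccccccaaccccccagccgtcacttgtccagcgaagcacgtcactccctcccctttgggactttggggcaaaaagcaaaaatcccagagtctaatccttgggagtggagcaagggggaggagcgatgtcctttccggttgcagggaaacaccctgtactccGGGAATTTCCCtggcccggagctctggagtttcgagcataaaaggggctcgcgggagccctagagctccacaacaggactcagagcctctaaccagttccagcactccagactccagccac
Il6: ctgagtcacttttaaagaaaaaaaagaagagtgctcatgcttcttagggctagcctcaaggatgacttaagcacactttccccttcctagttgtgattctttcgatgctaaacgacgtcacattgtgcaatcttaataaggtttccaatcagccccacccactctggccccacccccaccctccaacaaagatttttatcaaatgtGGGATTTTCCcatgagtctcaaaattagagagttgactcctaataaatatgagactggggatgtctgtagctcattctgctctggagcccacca
Actc1: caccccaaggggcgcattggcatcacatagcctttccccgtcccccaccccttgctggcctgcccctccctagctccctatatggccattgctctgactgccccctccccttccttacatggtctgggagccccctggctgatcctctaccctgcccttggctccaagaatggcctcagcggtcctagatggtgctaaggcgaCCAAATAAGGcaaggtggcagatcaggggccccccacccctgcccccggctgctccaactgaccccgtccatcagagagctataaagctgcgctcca
The kappaB site began 73 bases before the start of Cxcl3, 71 before that of Cxcl1 and 44 before that of Il6. The CArG box began 47 bases before the start of Actc1. The Actc1 window also held kappaB sites, left in small letters, that began 125 and 22 bases before its start. In Cxcl3 and Cxcl1 the site was found on both strands with an overlap of all bases except 1 at each end. On both strands, 8.46% of the 32851 promoters in the RefSeq table held a kappaB site and 1.63% a CArG box. For 54 of the 84 genes 65 promoters were given, of which 9 (13.8%) held a kappaB site. The window of Ifng, which was 37.1-fold higher, was searched and held none. The kappaB site was in the promoters of Cxcl1, Cxcl3, Il6, Tgfb1, Vegfa, Pdgfa, Tgfa, Itga3 and Actc1. This group holds 4 genes that rose, 4 that fell and Itga3, which did not pass the test. The CArG box was also in the promoter of Itgb6, whose protein is an epithelial integrin chain.

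Among the innate cytokines, Il6 encodes the interleukin that drives the acute phase response and STAT3 signalling. Il6 had a delta Ct of 4.57, 4.45 and 4.49 in DSS arrays, against 12.66, 13.03 and 12.80 in UN arrays. Every DSS array was far lower than the UN arrays, and Il6 was 321-fold higher in DSS (log2 fold change 8.33 ± 0.19 SE; limma with Benjamini-Hochberg adjustment, adjusted p = 3.53e-09). In UN arrays the raw Ct of Il6 were late, at 34.65, 35.02 and 34.82. The raw Ct of Il6 in UN replicate 1 is earlier in the study's supplementary workbook, which was not used here, than in the deposited table. Il1b, a cytokine of activated macrophages and neutrophils, had 0.88, 0.90 and 0.89 in DSS arrays, against 8.17, 8.17 and 8.15 in UN arrays, and was 155-fold higher. Its repeats were nearly identical in both groups. Il10, a cytokine that restrains macrophages and T cells, had 7.79, 7.67 and 7.77 in DSS arrays, against 13.53, 13.04 and 13.23 in UN arrays, and was 46.0-fold higher. The raw Ct of Il10 in UN arrays were late, at 35.52, 35.03 and 35.25.

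The CC chemokines Ccl7 and Ccl12, which attract monocytes through the receptor Ccr2 in the mouse, were 19.3-fold and 5.95-fold higher. Ccl7 had a delta Ct of 2.60, 2.55 and 2.60 in DSS arrays, against 6.87, 6.77 and 6.93 in UN arrays, so that the groups lay apart with little spread. Cxcl11, a chemokine gene induced by interferon, had 10.38, 9.89 and 10.10 in DSS arrays, against 11.49, 11.80 and 11.60 in UN arrays. It was 2.84-fold higher with no overlap (log2 fold change 1.51 ± 0.51 SE; limma with Benjamini-Hochberg adjustment, adjusted p = 0.0211). Its standard error is wide because the DSS+DPG arrays, whose Cxcl11 Ct had the highest SD of that group at 1.16 cycles, share the estimate. The adjusted p of Cxcl11 was 0.0606 without DSS replicate 2, 0.0505 without DSS replicate 3 and 0.0582 without UN replicate 2, and 0.000126 in limma over the 6 DSS and UN arrays alone.

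The 4 cytokines of T cells rose unequally. Ifng, the interferon of Th1 and natural killer cells that activates macrophages, had a delta Ct of 7.17, 7.16 and 7.19 in DSS arrays, against 12.52, 11.95 and 12.69 in UN arrays. It was 37.1-fold higher in DSS, with a spread in UN only. Il2, the growth factor of T cells, had 13.32, 12.94 and 13.67 in DSS arrays, against 14.61, 15.28 and 14.90 in UN arrays, and was 3.08-fold higher from late Ct in both groups. Cd40lg, the T cell ligand that activates B cells and macrophages, was 2.47-fold higher, with an adjusted p of 0.0588 in limma with arrays 1 and 2 of each group alone. Il4, the cytokine of Th2 cells, had the smallest rise of the class at 2.09-fold. Its delta Ct was 9.31, 9.48 and 9.44 in DSS arrays, against 10.53, 10.44 and 10.45 in UN arrays, and the groups did not overlap.

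**Figure D4:**
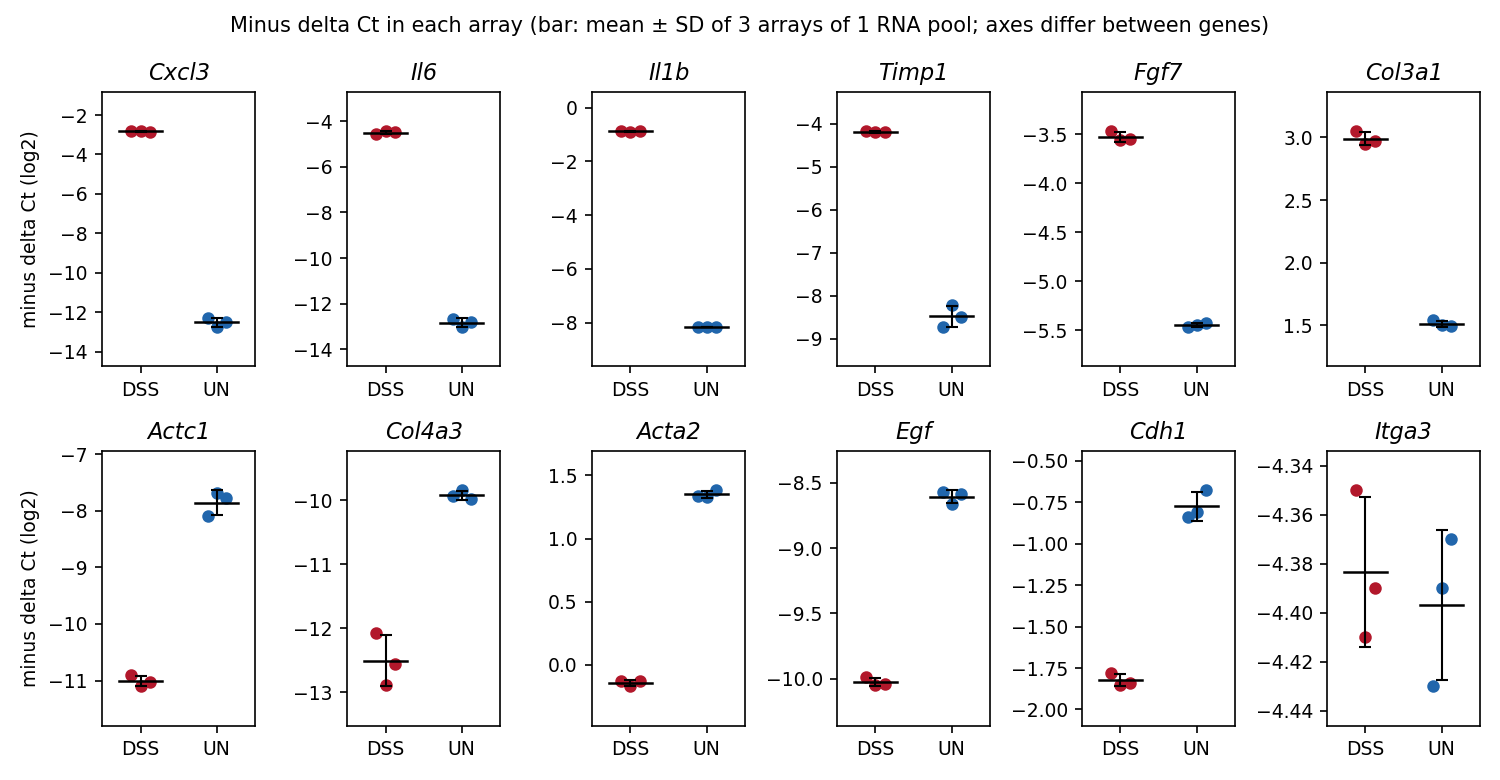
Minus delta Ct (log2 scale, higher means more RNA relative to the housekeeping genes) in each array for 12 genes, with the DSS arrays (red) left of the UN arrays (blue) and the mean ± SD of the 3 arrays in black. The vertical axes differ between genes. In the upper row every DSS array lies above every UN array, in the lower row Actc1, Col4a3, Acta2, Egf and Cdh1 lie below, and Itga3 overlaps on an axis that spans about 0.1.

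Growth factors changed in both directions, in shares near those of the panel. Of the 17 genes, 9 rose, 6 fell and 2 did not pass the test, against 61.9% higher and 29.8% lower in the panel, and 5 rose by at least 3.5-fold, against 27.4% of the panel. Csf3 was 253-fold higher while Csf2, the other colony-stimulating factor, was lower. All 5 stromal factors rose and all 3 ligands of the EGF receptor fell.

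Csf3 encodes G-CSF, which drives the formation of neutrophils, and had a delta Ct of 6.80, 6.73 and 6.74 in DSS arrays, against 15.71, 14.02 and 14.49 in UN arrays. All 3 UN Ct were past 35, with UN replicate 1 the latest, and the log2 fold change of 7.98 ± 0.40 (SE) was 7.50 without it. Csf2 encodes GM-CSF, a growth factor of macrophages and granulocytes, and had 10.56, 10.30 and 10.39 in DSS arrays, against 9.74, 8.44 and 8.79 in UN arrays. Every DSS array had a higher delta Ct than every UN array, so that Csf2 was lower in DSS, with a log2 fold change of -1.43 ± 0.32 (SE; limma with Benjamini-Hochberg adjustment, adjusted p = 0.00327). UN replicate 1 was again the outlying array of its group, and with arrays 1 and 2 of each group alone Csf2 had an adjusted p of 0.0588 in limma. In the difference of the 2 raw Ct of an array, into which no reference enters, Csf3 over Csf2 was 3.66 ± 0.10 in DSS and -5.75 ± 0.20 in UN on the log2 scale (SD, n = 3 each), 9.41 apart (p = 0.1, the lowest that an exact two-sided permutation test of 3 against 3 can give, and 0.1 after adjustment over 8 such pairs). Tnf, a central cytokine of inflammation that the array's maker lists with the growth factors, had a delta Ct of 4.81, 4.86 and 4.86 in DSS arrays, against 8.61, 8.50 and 8.49 in UN arrays, and was 12.9-fold higher.

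Stromal factors that act on epithelium rose together. Hgf, a fibroblast factor that makes epithelial cells move and divide, was 5.39-fold higher, with a delta Ct of 4.36, 4.37 and 4.39 in DSS arrays, against 6.74, 6.88 and 6.79 in UN arrays. Fgf2, which stimulates fibroblasts and vessels, was 4.02-fold higher, and Fgf7, the keratinocyte growth factor, 3.79-fold higher. Fgf7 had 3.47, 3.56 and 3.55 in DSS arrays, against 5.47, 5.45 and 5.43 in UN arrays, with no overlap. For Fgf2 and Fgf7 the study's supplementary workbook, not used here, lists later DSS Ct in replicates 1 and 2 than the deposited table, by the same amount in both arrays of a gene, and the rises would be smaller from those. Igf1 and Fgf10, a growth factor and an epithelial differentiation factor of mesenchymal cells, were 2.30-fold and 2.17-fold higher.

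The ligands of the EGF receptor went the other way. Egf itself had a delta Ct of 9.99, 10.05 and 10.04 in DSS arrays, against 8.57, 8.66 and 8.59 in UN arrays. Every DSS array had less, and the log2 fold change was -1.42 ± 0.14 (SE; limma with Benjamini-Hochberg adjustment, adjusted p = 2.71e-05). Tgfa, the main EGF family ligand made by gut epithelium, had -0.95 ± 0.04 (SE), and Hbegf, a ligand shed from the cell surface, had -0.24 ± 0.05 (SE), which turned to 0.24 with Gapdh alone as reference. Egfr, their receptor, was 1.34-fold higher. Without any reference, the log2 ratio of Fgf7 over Egf was 6.50 ± 0.02 in DSS and 3.16 ± 0.06 in UN, and that of Tgfb1 over Tgfa was 3.78 ± 0.03 in DSS and 1.59 ± 0.04 in UN (SD, n = 3 each). Both ratios lay apart in all arrays, by 3.34 and 2.18.

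Among vascular factors, Angpt1, which steadies vessels through the receptor Tie2, was 1.42-fold higher. Vegfa, the main inducer of vessel growth, had a delta Ct of 4.83, 4.91 and 4.89 in DSS arrays, against 4.30, 4.29 and 4.24 in UN arrays, and Pdgfa, a growth factor of fibroblasts, had 5.47, 5.53 and 5.50, against 4.90, 4.65 and 4.43. Both were lower in every DSS array, with log2 fold changes of -0.60 ± 0.05 and -0.84 ± 0.11 (SE). The fall of Vegfa did not pass the test in the same direction under every reference.

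In the TGF beta group, Tgfb1, which induces matrix genes and restrains T cells, was 2.36-fold higher, Tgfbr3, the coreceptor betaglycan, 2.49-fold and Wisp1, a matricellular protein of the CCN family, 2.34-fold. Ctgf, another CCN protein that promotes fibrosis, did not follow them. Its delta Ct was 3.80, 3.77 and 3.79 in DSS arrays, against 3.05, 3.05 and 2.96 in UN arrays. The groups lay clearly apart with less in DSS, yet the log2 fold change of -0.77 ± 0.33 (SE) missed the threshold (limma with Benjamini-Hochberg adjustment, adjusted p = 0.0569). Limma over the 6 DSS and UN arrays alone, without the spread of the DSS+DPG arrays, gave an adjusted p of 3.37e-06. Mif, a macrophage cytokine, was alike in this: its delta Ct was 1.51, 1.56 and 1.59 in DSS arrays, against 1.22, 1.29 and 1.23 in UN arrays, and its log2 fold change of -0.31 ± 0.24 (SE) had an adjusted p of 0.260 in limma over 9 arrays with Benjamini-Hochberg adjustment and of 0.000325 over 6. The value for Mif was above 0 under 3 references, including that of Itga3, Mif and Hsp90ab1, which contains Mif itself.

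Signal transduction genes also changed in both directions, in shares near those of the panel. All 11 genes passed the test, 7 higher and 4 lower, against 61.9% and 29.8% of the panel. The rises were in Ptgs2, Tgfbr3, Wisp1, Il6st, Wnt5a, Stat3 and Egfr, and the falls included Mapk3 and Ctnnb1. Ptgs2, the inducible cyclooxygenase of prostaglandin synthesis, had the only rise of at least 3.5-fold in the class. No fall in the class reached 2-fold.

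Ptgs2 had a delta Ct of 3.28, 3.30 and 3.29 in DSS arrays, against 6.61, 6.59 and 6.57 in UN arrays. The groups were far apart with almost no spread, and Ptgs2 was 9.85-fold higher. Il6st, the signalling chain of the interleukin 6 receptor, was 1.84-fold higher and Stat3, the transcription factor beneath it, 1.35-fold. The ligand moved far more than its receptor chain: the log2 ratio of Il6 over Il6st, without a reference, was -1.65 ± 0.12 in DSS and -9.10 ± 0.17 in UN (SD, n = 3 each), 7.45 apart. Wnt5a, a Wnt ligand of the noncanonical pathway made by mesenchymal cells, was 1.66-fold higher, while Ctnnb1, the beta-catenin of junctions and Wnt signalling, had a log2 fold change of -0.69 ± 0.03 (SE).

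Mapk3, which encodes the kinase Erk1 of growth factor signalling, had a delta Ct of 3.16, 3.19 and 3.13 in DSS arrays, against 2.29, 2.20 and 2.21 in UN arrays. Every DSS array had less, with a log2 fold change of -0.93 ± 0.04 (SE), and the fall passed the test under each of the 9 references.

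Matrix structure genes showed small rises of fibrillar collagens and opposite changes within type IV collagen. Of the 10 genes, 7 rose, 2 fell and 1 did not pass the test, which is near the panel's 61.9% higher and 29.8% lower, and 5 of the 7 rises held under every reference. Vtn was the highest and Col4a3 the lowest member. The type I collagen genes Col1a1 and Col1a2 moved by less than 2-fold.

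Vtn encodes vitronectin, a plasma and matrix protein that binds integrins and Plaur. Its delta Ct was 5.11, 5.17 and 5.16 in DSS arrays, against 7.87, 7.79 and 7.79 in UN arrays, and it was 6.37-fold higher with no overlap. Col3a1, the type III collagen of young granulation tissue, had -3.05, -2.95 and -2.97 in DSS arrays, against -1.54, -1.50 and -1.49 in UN arrays, and was 2.79-fold higher. For both genes the study's supplementary workbook, not used here, lists later DSS Ct in replicates 1 and 2 than the deposited table, by the same amount in both arrays of a gene. The rises of Vtn and Col3a1 would be smaller from those. Col5a1, a chain of type V collagen, which starts fibrils, was 1.42-fold higher and Col1a1, of type I, 1.41-fold. The rises of Col5a2, also of type V, and Col1a2, of type I, were 1.15-fold and 1.09-fold and did not hold under every reference. Col5a3, the other type V chain, had 6.82, 6.91 and 6.91 in DSS arrays, against 7.10, 6.86 and 6.90 in UN arrays, which overlapped (log2 fold change 0.07, 95% confidence interval -0.40 to 0.55).

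Type IV collagens form basement membranes. Col4a1, a chain found in all of them, was 2.17-fold higher, with a delta Ct of 1.92, 2.00 and 1.97 in DSS arrays, against 3.17, 3.11 and 2.96 in UN arrays. Col4a3, a chain of specialised basement membranes, had 12.08, 12.88 and 12.56 in DSS arrays, against 9.93, 9.85 and 9.99 in UN arrays. Every DSS array had a higher delta Ct than the UN arrays, and Col4a3 was 5.99-fold lower in DSS (log2 fold change -2.58 ± 0.33 SE; limma with Benjamini-Hochberg adjustment, adjusted p = 0.000116). Its raw Ct in DSS arrays were late, at 34.39, 35.04 and 34.78. The log2 ratio of Col4a1 over Col4a3, without a reference, was 10.5 ± 0.36 in DSS and 6.84 ± 0.16 in UN (SD, n = 3 each). Col14a1, a collagen on the surface of fibrils, was lower in DSS with a log2 fold change of -0.87 ± 0.04 (SE).

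Matrix remodeling genes rose about as often as the panel, and more of them by a large amount. Of the 16 genes, 11 rose, 3 fell and 2 did not pass the test, against 61.9% higher and 29.8% lower in the panel, and 7 rose by at least 3.5-fold, against 27.4% of the panel. The rises included 4 of the 5 genes of the plasminogen system, 3 of the 4 metalloproteinases and their inhibitor Timp1. Timp1 was the highest member and Mmp1a the lowest. The 3 falls (F3, Ctsl and Mmp1a) were small, and none held under every reference.

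Timp1, the secreted inhibitor of metalloproteinases, had a delta Ct of 4.17, 4.20 and 4.19 in DSS arrays, against 8.73, 8.23 and 8.50 in UN arrays. The DSS arrays were alike and the UN arrays more spread, with no overlap, and Timp1 was 19.7-fold higher (log2 fold change 4.30 ± 0.11 SE). Mmp9, the gelatinase of neutrophils and macrophages, was 5.57-fold higher, Mmp7, the matrilysin of epithelium, 3.68-fold, and Mmp2, the gelatinase of fibroblasts, 2.37-fold. The inhibitor gained on Mmp9: the log2 ratio of Timp1 over Mmp9, without a reference, was 1.25 ± 0.02 in DSS and -0.58 ± 0.25 in UN (SD, n = 3 each), and did not overlap. Mmp1a, a collagenase, had 6.93, 6.79 and 6.87 in DSS arrays, against 6.68, 6.22 and 6.41 in UN arrays. Its log2 fold change of -0.43 ± 0.13 (SE) turned to 0.05 with Gapdh alone as reference.

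Plasminogen is cleaved to plasmin by activators. Plaur, the cell surface receptor of urokinase, had a delta Ct of 3.63, 3.71 and 3.66 in DSS arrays, against 7.08, 7.22 and 7.09 in UN arrays, and its log2 fold change was 3.46 ± 0.04 (SE) with no overlap. Plat, the tissue-type activator, was 5.78-fold higher and Plau, the urokinase itself, 1.61-fold. The log2 ratio of Plat over Plau, without a reference, was 2.29 ± 0.18 in DSS and 0.44 ± 0.27 in UN (SD, n = 3 each), 1.85 apart. Plg, plasminogen, which is made mainly in the liver, had 13.98, 15.84 and 15.78 in DSS arrays, against 15.11, 16.01 and 15.98 in UN arrays. Only replicate 1 of each group had a Ct below the limit of 38, and the others stand at that limit, so no direction was read (log2 fold change 0.50, 95% confidence interval -0.68 to 1.68, and -0.11 without DSS replicate 1).

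In the clotting group, F13a1, the chain of factor XIII made by macrophages, was 2.08-fold higher. Fga, a chain of fibrinogen, had a delta Ct of 14.81, 12.79 and 14.67 in DSS arrays and was at the limit in all 3 UN arrays, at 16.01, 16.01 and 15.98, so its change is measured against that limit and not against a UN level. DSS replicate 2 was much earlier than the others, and the log2 fold change of 1.91 (95% confidence interval 0.78 to 3.04) was 1.26 without it. F3, tissue factor, which starts clotting, had a log2 fold change of -0.22 ± 0.05 (SE), which turned to 0.25 with Gapdh alone. Of the cathepsins, proteases of lysosomes and granules, Ctsk was 1.76-fold higher, Ctsl had a log2 fold change of -0.20 ± 0.03 (SE), and Ctsg, of neutrophil granules, had a Ct below the limit only in DSS replicate 2. The delta Ct of Ctsg was 15.69, 14.32 and 15.78 in DSS arrays, against 16.01, 16.01 and 15.98 in UN arrays, so a difference was not detectable within this limit.

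Cell adhesion genes changed little and in both directions. Of the 12 genes, 5 rose, 5 fell and 2 did not pass the test, against 61.9% higher and 29.8% lower in the panel. No rise reached 2-fold, against 42.9% of the panel, and only Cdh1 fell by as much, against 8.33%. The median was 0.01. Integrin chains that bind fibronectin and vitronectin had 4 rises and 1 fall among 6 genes, near the panel's 61.9% and 29.8%. Chains that bind collagen and laminin had 3 falls and no rise among 4 genes, but only the fall of Itga6 held under every reference, and the groups of chains were not tested against each other.

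Itga4, a chain of leukocyte integrins, had the highest change of the class. Its delta Ct was 5.19, 5.29 and 5.25 in DSS arrays, against 6.16, 6.24 and 6.16 in UN arrays, and it was 1.92-fold higher with no overlap. Itgav, the alpha chain of vitronectin receptors, was 1.83-fold higher, Itgb6, its epithelial partner, 1.37-fold, Itgb1, the chain shared by most integrins, 1.19-fold, and Itga5, of the fibronectin receptor, 1.15-fold. The last 2 did not hold under every reference. Cdh1, the E-cadherin of epithelial junctions, had 1.78, 1.85 and 1.84 in DSS arrays, against 0.84, 0.81 and 0.68 in UN arrays. All DSS arrays had the higher delta Ct, and its log2 fold change was -1.05 ± 0.05 (SE; limma with Benjamini-Hochberg adjustment, adjusted p = 1.01e-07).

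Itga6, a laminin-binding chain of the basal side of epithelium, had a log2 fold change of -0.73 ± 0.06 and Itga1, a collagen-binding chain, -0.47 ± 0.05 (SE). Itga2, another collagen-binding chain, and Itgb5, a vitronectin receptor chain, had -0.18 and -0.23 and turned above 0 under 3 references. Itga3, a laminin-binding chain, had a delta Ct of 4.35, 4.41 and 4.39 in DSS arrays, against 4.43, 4.39 and 4.37 in UN arrays. Itgb3, the beta chain of platelets and osteoclasts, had 5.91, 5.92 and 5.96 in DSS arrays, against 5.94, 5.97 and 5.92 in UN arrays. Both overlapped between groups, with log2 fold changes of 0.01 and 95% confidence intervals of -0.06 to 0.09 and -0.05 to 0.08. These intervals hold for this reference only, since the reference moved both genes by -0.23 to 0.48.

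Cytoskeleton genes fell as a whole class. All 5 were lower in DSS, against 29.8% of the panel, and 3 of them fell by at least 2-fold, against 8.33% of the panel. The deepest fall was in cardiac alpha-actin, and the small GTPases fell with the contractile genes. The fall of Tagln was the only one of the 5 that did not hold under every reference.

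Actc1 encodes the alpha-actin of heart muscle, which smooth muscle also expresses. Its delta Ct was 10.91, 11.10 and 11.02 in DSS arrays, against 8.10, 7.69 and 7.78 in UN arrays. The groups lay far apart, and Actc1 was 8.89-fold lower in DSS (log2 fold change -3.15 ± 0.10 SE; limma with Benjamini-Hochberg adjustment, adjusted p = 2.12e-08). Acta2, the alpha-actin of smooth muscle and myofibroblasts, had 0.13, 0.17 and 0.13 in DSS arrays, against -1.34, -1.33 and -1.38 in UN arrays, and was 2.81-fold lower. Tagln, an actin-binding protein of smooth muscle, had -0.71, -0.63 and -0.64 in DSS arrays, against -1.82, -1.03 and -1.23 in UN arrays. The groups did not overlap, but UN replicate 1 stood off, and the log2 fold change of -0.70 ± 0.18 (SE) was -0.47 without it. Rac1 and Rhoa, the GTPases that shape lamellipodia and stress fibres, had log2 fold changes of -1.14 ± 0.03 and -0.77 ± 0.03 (SE).

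Markers of the cell types that colon RNA can hold also moved. The shares of the whole panel are 61.9% higher and 29.8% lower. Of the 3 smooth muscle genes all fell, and their summed level (2 to the power of minus delta Ct, added over the list) lay between 2.44 and 2.55 in DSS arrays, against 4.57 and 6.06 in UN arrays. Of the 4 epithelial genes 2 fell (Cdh1 and Itga6) and 1 rose (Itgb6), with a sum of 0.418 to 0.438 in DSS arrays, against 0.687 to 0.760 in UN arrays. The epithelial sum and its fall are carried mostly by Cdh1, which was well detected in all arrays. The panel holds no marker of the colon alone. Of the 7 fibroblast genes 6 rose and 1 fell, and 4 of the 6 rises held under every reference. The fibroblast sum was 8.70 to 9.33 in DSS arrays, against 3.63 to 3.70 in UN arrays. This sum is carried by Col3a1, whose DSS Ct differ between the deposited table and the workbook.

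The immune lists lay apart most. Of the 5 genes of neutrophils and macrophages 4 rose, where 61.9% of the panel did, with a sum of 0.686 to 0.697 in DSS arrays, against 0.0383 to 0.0395 in UN arrays. The DSS sum was carried mostly by Il1b, and Ctsg was at the limit in 5 of the 6 arrays. All 4 T cell genes rose, with a sum of 0.00862 to 0.00885 in DSS arrays, against 0.000983 to 0.00115 in UN arrays, and the DSS sum was carried mostly by Ifng. The lists share members with the classes above and are few in number. The part of a changed cell make-up in the cytokine, remodeling, adhesion and cytoskeleton results was not tested.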

How the data were processed

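RNA from the colons of 5 mice per group was pooled and run on 3 RT2 Profiler PCR arrays of wound healing genes per pool. Raw Ct values were deposited by the authors for all wells, on a log2 scale without normalization, along with averages per group made with the array maker's software. These averages served only as a check. The deposited mean delta Ct follow the geometric mean Ct of Itga3, Mif and Hsp90ab1, not the mean of the 5 housekeeping genes named in the methods. The authors' fold changes, fold regulation and p-values were not used.

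Values were computed from the raw Ct. Missing Ct and those over 38 were set to 38. Minus delta Ct against the mean of Actb, B2m, Gapdh, Gusb and Hsp90ab1 of 9 arrays entered 1 limma fit (version 3.58.1, R 4.3.3), so that 3 groups share 1 estimate of the spread, and the contrast DSS minus UN was adjusted by Benjamini-Hochberg over 84 genes. Confidence intervals are 95%, from the same fit. Housekeeping genes, control wells and 8 gene pairs were compared by exact permutation tests in Python 3.11.15 with SciPy 1.17.1, and figures drawn with matplotlib 3.10.9. The fit was tested on 20 simulated data sets. All 84 panel genes matched the RefSeq gene table by accession or symbol. The number of arrays limits the precision.

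Any panel gene could be named. Values of every array were given for the 3 largest rises and falls, the highest and lowest member of each class, genes not past the test or without a Ct in a whole group, the housekeeping genes, and further genes chosen with their values known. The members, classes, marker lists and gene pairs were chosen with earlier results of these data known. Alternatives were other references, limits of 35 and 40, a filter on late Ct, the 6 arrays alone, a replicate block, arrays left out, the array software's test, unadjusted p and fold thresholds. The DSS+DPG comparisons were not used here, and the results of 3 panel genes are not reported here, although they are part of every count.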

Additional observations from a re-analysis of the deposited data

How the results depend on the processing

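The counts of 77 changed genes, 52 higher and 25 lower, kept within 1.5 times under most settings. The exceptions were 16 lower genes with Gapdh alone and with Itga3, Mif and Hsp90ab1, 21 higher and 51 lower with the panel median, 7 lower (43 in all, with 36 higher still within 1.5 times) at 2-fold or more, and 23 higher and 2 lower (25 in all) at 3.5-fold or more. Leaving out 1 array gave 76 to 78 changed, 51 to 53 higher and 25 lower in each case. Arrays 1 and 2 of each group alone, a setting chosen after seeing the data, gave 67. Same-numbered DSS and UN arrays deviated together by correlations of 0.338, 0.073 and 0.208. These were not tested, so whether replicate numbers pair the arrays was not settled. The replicate block gave 77 changed genes, 52 higher and 25 lower.

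Small log2 fold changes changed sign with the reference, by its own construction. The panel median, which moved every gene by -1.44, is left out of the values that follow. Without B2m, Ctsl was 0.14, F3 0.11, Hbegf 0.10, Itga2 0.15, Itgb5 0.11 and Mif 0.027. With Gapdh alone, Ctsl was 0.28, F3 0.25, Hbegf 0.24, Itga1 0.01, Itga2 0.29, Itgb5 0.25, Mif 0.17 and Mmp1a 0.05. With Itga3, Mif and Hsp90ab1, Ctsl was 0.21, F3 0.18, Hbegf 0.17, Itga2 0.22, Itgb5 0.18 and Mif 0.10. Itga3 and Itgb3 were each -0.031 with the geometric mean, -0.028 without Gusb, -0.11 without Gapdh, -0.20 without Hsp90ab1 and -0.22 with no reference. Col5a3 was -0.045 without Gapdh, -0.14 without Hsp90ab1 and -0.16 with none. Without Hsp90ab1, Col1a2 was -0.089 and Col5a2 and Itga5 were -0.016, and with none Col1a2 was -0.11 and Col5a2 and Itga5 were -0.033. When 1 array was left out, Itga3 lay between -0.0037 and 0.026, and Plg between -0.11 and 0.82. Wells at the limit of 38 restrict Fga, Ctsg and Plg. Ct past 35 were also found in some DSS or UN arrays of Csf3, Il10, Il2, Cd40lg, Il6 and Col4a3. With a limit of 35 there were 80 changed genes, and with genes below 35 throughout 70.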
